A study of Mus musculus with 15 samples.

Results

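The genes described here encode 5 subunits of the NMDA receptor, Grin2a, Grin2b, Grin2c, Grin2d and Grin3a. They were followed in RNA bound to tagged ribosomes of the postnatal mouse cerebellum. They were taken by gene symbol from the annotation of the array's probe sets, and a gene with several probe sets was read from the brightest. Each of the 5 had a single probe set, so the members are 5 of 19500 genes with a symbol of their own among 22092 probe sets. All animals carried the Tg(Pcp2-L10a-Egfp) transgene, in which the promoter of the Purkinje cell gene Pcp2 drives a green fluorescent ribosomal protein, so no group was free of it. Cerebella were pooled and homogenised with cycloheximide, which holds ribosomes on their messages. RNA pulled down with the tag (translating ribosome affinity purification) was hybridised to 15 Affymetrix arrays, 3 each at postnatal days P0, P7, P15, P21 and P56. The mice were healthy, untreated and kept free of specific pathogens, and the labels used here name neither sex nor strain. RNA of whole cerebella or of mice without the transgene was not analysed here.

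NMDA receptors are glutamate-gated cation channels built as tetramers, in which the obligatory GluN1 binds glycine or D-serine and the GluN2 subunits bind glutamate. Magnesium blocks the pore at rest, so the channel opens when transmitter and depolarisation coincide, and calcium then enters. GluN2B and GluN2D are known as subunits of young neurons and GluN2A and GluN2C as subunits of mature ones. Cerebellar granule cells are the textbook case of a change from GluN2B to GluN2A and GluN2C. GluN3A lowers calcium entry and is known from immature spines. Purkinje cells are unusual among principal neurons in that synapses of the adult cell rely mainly on AMPA receptors, with NMDA receptors described in newborn cells and again, more weakly, at adult climbing fibre synapses.

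Values are log2 signals as deposited, with the base taken as 2 because the values span the range usual for that base. An array's signal for a gene cannot be set against that of another gene, so levels are compared only between ages of the same gene. The values come with no measure of background. The lower quartile of the signals was 5.86 to 6.01 over the arrays, and every member lay above the quartile of its array at every age. A change was called at a limma adjusted p under 0.05 over all probe sets. All 5 members differed between ages (limma F-test, adjusted p 1.03e-05 for Grin2a and 3.84e-11 or lower for the other members), as did 81.6% of all probe sets, so a call in this series is common.

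The 15 arrays gave replicate correlations of 0.994 to 0.999 within an age. Purkinje cell markers were mostly lower at P0 than at later ages, with 17 of 18 measured markers called higher and 1 lower at P7 against P0. The exception was Foxp2, with 11.02 at P7 and 11.27 at P0, and Dner was already at 12.41 at P0, both named after their values were seen. Of all probe sets, 33.6% were called higher and 28.5% lower at P7 against P0. The mean of 18 measured markers was 9.25 at P0, 12.51 at P7, 12.61 at P15, 12.57 at P21 and 12.67 at P56, and Pcp2 itself stood at 8.53, 13.16, 13.22, 13.22 and 13.71 at these ages. The list means of other cell types' markers lay above the lower quartile too, at every age. In bulk RNA, fewer cells of a type and less RNA per cell cannot be told apart, and neither can a difference in what the tag captured at P0 and later. P56 was therefore also compared with P7, when the markers were already near their later level. The comparisons of P7 and P56 with P0 share the P0 arrays.

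**Figure D1:**
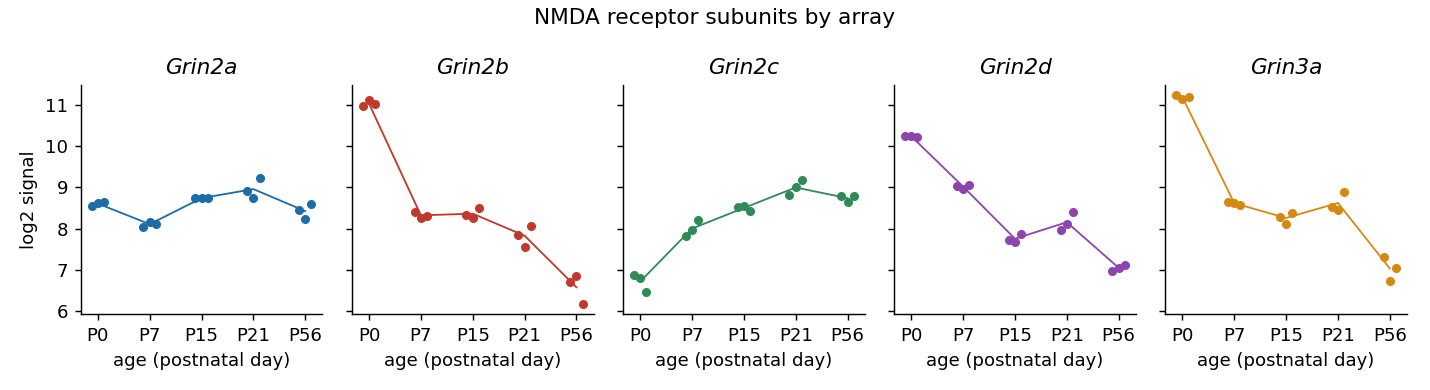
Log2 signal (vertical axis) of each NMDA receptor subunit gene at each age (horizontal axis), with a point for each of 3 arrays and a line through the means. Grin2b, Grin2d and Grin3a are highest at P0, Grin2c is lowest at P0, and Grin2a lies between 8.04 and 9.22 at all ages.

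Promoter windows were held for Grin2c and Grin2d in the RefSeq table of build GRCm38.p6, and the members not held there were Grin2a, Grin2b and Grin3a. The pair is shown because Grin2c and Grin2d code for related subunits and changed in opposite directions at P56 against P0, although both rose at P21 against P15. Each line gives the 250 bases before the annotated start, 5′ to 3′. Both genes lie on the minus strand, and the windows are at chr11:115267244-115267493 for Grin2c and chr7:45866682-45866931 for Grin2d. Capitals mark the GC box GGGCGG, the motif bound by Sp1, which was searched on both strands beside the TATA box TATAAA.
Grin2c: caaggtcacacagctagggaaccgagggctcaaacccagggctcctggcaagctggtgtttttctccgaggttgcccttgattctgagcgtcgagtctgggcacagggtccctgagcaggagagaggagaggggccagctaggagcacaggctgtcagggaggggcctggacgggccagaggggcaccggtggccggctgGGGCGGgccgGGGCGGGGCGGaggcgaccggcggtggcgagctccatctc
Grin2d: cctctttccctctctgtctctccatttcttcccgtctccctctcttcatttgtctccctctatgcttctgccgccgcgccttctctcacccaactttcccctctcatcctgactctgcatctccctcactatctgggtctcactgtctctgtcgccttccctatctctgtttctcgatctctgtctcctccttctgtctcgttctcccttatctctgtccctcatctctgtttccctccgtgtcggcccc
The Grin2c window held 3 GC boxes, beginning 50, 40 and 35 bases before the start, of which the last pair shares a base. The Grin2d window held 0 GC boxes. The TATA box was in neither window. Of 32851 promoter windows of this length in the table, 32.7% held a GC box and 12.4% a TATA box. The windows also differed in composition, with 68.8% G or C and 15 CG pairs for Grin2c, and 54.4% and 9 for Grin2d. Of the 250 bases, 54 for Grin2c and all 250 for Grin2d lie within the span of the gene in the RefSeq gene table, so other starts are annotated upstream. For Grin2c these are the 54 bases nearest the start, so all 3 GC boxes lie within the gene's span. These matches describe the letters and were not tested against the signals.

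Grin2b, the subunit of juvenile receptors with slow currents, was the member that fell most over the whole span. It had signals of 10.97, 11.11 and 11.03 at P0, of 8.39, 8.26 and 8.31 at P7, of 8.33, 8.26 and 8.50 at P15, of 7.85, 7.56 and 8.07 at P21 and of 6.70, 6.85 and 6.17 at P56. The P0 arrays stood far above all others, P7 and P15 overlapped, and P21 and P56 followed below without overlap. At P7 against P0 its signal fell by 2.71 (SE 0.14, limma adjusted p 1.49e-11, n = 3 per age), which is a 6.56-fold lower level at P7. At P15 against P7 it changed by 0.04 (95% interval −0.26 to 0.34, not called). It then fell by 0.53 at P21 against P15 (adjusted p 0.0145), a call that ended without P15 replicate 3 (−0.47) or without P21 replicate 2 (−0.40). At P56 against P21 it fell by 1.25 (SE 0.14, adjusted p 8.79e-07). Over the whole span it fell by 4.46 (SE 0.14, adjusted p 1.13e-14), a 22.0-fold lower level at P56 than at P0. Starting from P7 instead, it fell by 1.75 (adjusted p 1.29e-08). The P56 mean of Grin2b, 6.57, lay close to the lower quartile, so the part of background in the falls to P56 is not known.

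Grin3a, the subunit that lowers calcium permeability, had signals of 11.23, 11.16 and 11.19 at P0, of 8.65, 8.63 and 8.57 at P7, of 8.29, 8.10 and 8.38 at P15, of 8.52, 8.45 and 8.89 at P21 and of 7.31, 6.72 and 7.05 at P56. The P0 arrays were again the highest by far and the P56 arrays the lowest, while the 3 ages between lay close together, with P7 and P21 at the same mean of 8.62. Its signal fell by 2.58 at P7 against P0 (SE 0.13, adjusted p 7.08e-12) and by 1.59 at P56 against P21 (SE 0.13, adjusted p 1.36e-08). The steps between them missed the threshold, with −0.36 at P15 against P7 (adjusted p 0.0515) and 0.36 at P21 against P15 (adjusted p 0.0591). Both values lie at the edge of the call: P15 against P7 was also called without P21 replicate 2 or 3 or P56 replicate 1 or 2, and P21 against P15 without P21 replicate 2 or P56 replicate 1 or 2. At P56 against P0 it fell by 4.16 (SE 0.13, adjusted p 6.82e-15), a 17.9-fold lower level, and against P7 by 1.59 (adjusted p 1.12e-08).

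Grin2d, a subunit of embryonic and early postnatal receptors that is weakly blocked by magnesium, had signals of 10.25, 10.26 and 10.22 at P0, of 9.03, 8.97 and 9.05 at P7, of 7.73, 7.66 and 7.86 at P15, of 7.97, 8.10 and 8.39 at P21 and of 6.98, 7.05 and 7.11 at P56. No 2 ages overlapped, and P21 stood above P15 in an otherwise falling order. It fell by 1.22 at P7 against P0 (SE 0.09, adjusted p 1.33e-09) and by 1.26 at P15 against P7 (adjusted p 3.45e-08), a step in which Grin2b and Grin3a were not called. It rose by 0.40 at P21 against P15 (adjusted p 0.00463) and fell by 1.11 at P56 against P21 (adjusted p 1.50e-08). Over the whole span it fell by 3.20 (SE 0.09, adjusted p 2.23e-15), a 9.16-fold lower level at P56 than at P0. Starting from P7 it fell by 1.97 (SE 0.09, adjusted p 8.86e-12).

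Grin2c, the subunit best known from mature granule cells, was the member that rose over the whole span. It had signals of 6.86, 6.80 and 6.47 at P0, of 7.81, 7.97 and 8.22 at P7, of 8.52, 8.54 and 8.43 at P15, of 8.81, 9.00 and 9.19 at P21 and of 8.80, 8.63 and 8.78 at P56. Each age up to P21 lay above the age before it without overlap, and the P56 arrays lay just under those of P21. It rose by 1.29 at P7 against P0 (SE 0.12, adjusted p 2.45e-08), by 0.50 at P15 against P7 (adjusted p 0.00445) and by 0.50 at P21 against P15 (adjusted p 0.00655). The change at P56 against P21 was −0.26 (95% interval −0.51 to −0.01, adjusted p 0.0687) and turned to 0.037 under quantile normalization. It was called without P0 replicate 3 (−0.26) or without P21 replicate 1 (−0.36). P56 stood above P0 by 2.03 (SE 0.12, adjusted p 3.41e-11), a 4.07-fold higher level, and above P7 by 0.74 (adjusted p 3.59e-05). The P0 mean of Grin2c, 6.71, lay close to the lower quartile, so the part of background in the rises from P0 is not known.

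Grin2a, the subunit of mature receptors with fast currents, moved least over the whole span. It had signals of 8.56, 8.61 and 8.65 at P0, of 8.04, 8.16 and 8.12 at P7, of 8.74, 8.74 and 8.74 at P15, of 8.91, 8.74 and 9.22 at P21 and of 8.44, 8.23 and 8.60 at P56. P7 was the lowest age, P15 and P21 overlapped at the top, and P56 overlapped with P0. Its signal fell by 0.50 at P7 against P0 (SE 0.10, adjusted p 4.32e-04), rose by 0.63 at P15 against P7 (adjusted p 2.93e-04) and fell by 0.53 at P56 against P21 (adjusted p 3.25e-04, not called under quantile normalization at −0.22). The change at P21 against P15 was 0.22 (adjusted p 0.181), and it was called without P21 replicate 2 (0.33). At P56 against P0 it changed by −0.18 (95% interval −0.40 to 0.04, adjusted p 0.123). That sign is not settled: it was 0.14 with array medians set to 0 and 0.085 under quantile normalization, and −0.27 with a call without P56 replicate 3. P56 stood above P7 by 0.32 (adjusted p 0.0155), a call that ended without P7 replicate 1 (0.28) or without P56 replicate 3 (0.23).

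**Figure D2:**
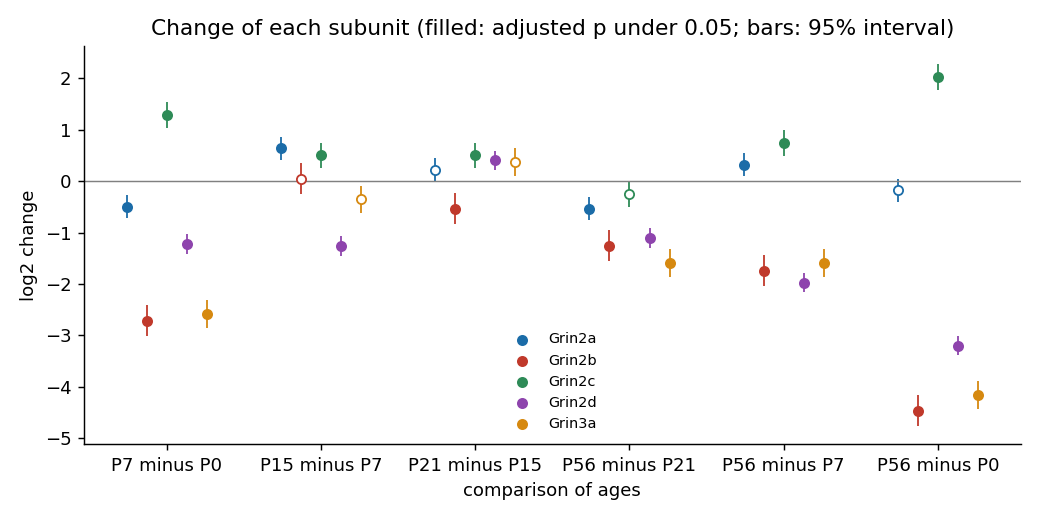
Log2 change (vertical axis) of each subunit gene in 6 comparisons of ages (horizontal axis), the later age minus the earlier, with 95% intervals from limma, filled points for adjusted p under 0.05 and open points otherwise. Grin2b and Grin3a fell most in the comparisons that start at P0, and Grin2c alone rose there.

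Counted by step, the 5 members were called as follows. At P7 against P0, 1 member was higher and 4 were lower, where 33.6% of all probe sets were called higher and 28.5% lower. At P15 against P7, Grin2a and Grin2c were higher and Grin2d lower, where 10.4% were called higher and 13.6% lower. At P21 against P15, Grin2c and Grin2d were higher and Grin2b lower, where 10.5% were called higher and 7.16% lower. At P56 against P21, 4 members were lower and Grin2c was not called, where 22.1% were called higher and 34.3% lower.

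The long comparisons gave the following counts. At P56 against P0, 1 member was called higher and 3 lower, where 40.1% of all probe sets were called higher and 35.3% lower. The members' median change was −3.20, against 0.085 over all probe sets. At P56 against P7, 2 members were higher and 3 lower, where 25.4% were called higher and 34.2% lower. The median was −1.59 there, against 0.0018 over all probe sets. Leaving the P0 arrays out of the fit, an alternative chosen after the values were seen, gave 2 higher and 3 lower in that comparison too. Setting array medians to 0 left these member counts at P56 as they were but moved the background: calls over all probe sets were 70.2% higher ones at P56 against P0, against 53.2% as deposited, and 71.9% against 42.5% at P56 against P7. In the steps P15 against P7, P21 against P15 and P56 against P21, the higher share was 62.2%, 45.9% and 69.1%, against 43.3%, 59.5% and 39.3% as deposited.

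The classic measure of receptor maturation is the balance of Grin2a against Grin2b. The difference between their signals within an array cancels any shift that the array gives to both, and its change with age shows unequal change of the genes, not their relative amounts. It was −2.41, −2.50 and −2.38 at P0, −0.35, −0.10 and −0.19 at P7, 0.42, 0.47 and 0.24 at P15, 1.07, 1.17 and 1.15 at P21 and 1.74, 1.38 and 2.43 at P56. Each age lay above the age before it in all 3 arrays, while Grin2a itself fell, rose, was not called and fell over the 4 steps.

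Over the whole span Grin2b fell by 4.46 while Grin2a was not called. The mean difference at P7 was −0.21 ± 0.13 and at P0 −2.43 ± 0.06 (SD, n = 3 each), a difference of 2.21. The later steps were 0.59, 0.75 and 0.72. P56 averaged 1.85 ± 0.53, against −2.43 ± 0.06 at P0, a difference of 4.28, and it was 2.06 above P7. The exact two-sided permutation p was 0.1 for each of these comparisons, the smallest that 3 against 3 arrays can give, so none can pass 0.05. Of the 15 arrays left out in turn, P56 replicate 3 moved the last step most, to 0.43. In that array Grin2b stood at 6.17. Grin2b lay close to the lower quartile at P56, so the part of background in the P56 differences is not known.

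**Figure D3:**
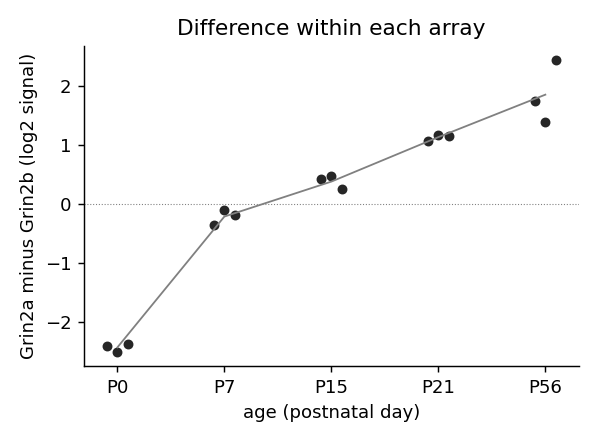
Difference of the log2 signals of Grin2a and Grin2b within each array (vertical axis) by age (horizontal axis), with a point per array and a line through the means. The means stand at −2.43 at P0, −0.21 at P7, 0.38 at P15, 1.13 at P21 and 1.85 at P56.

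Among the arrays of an age, P21 replicate 3 stood out for these genes. It held the highest signal of its age for 5 of 5 members, among them Grin2a at 9.22 (8.91 and 8.74 in the other two arrays) and Grin3a at 8.89 (8.52 and 8.45). Its marker means were also the highest of the age for granule cells, at 11.22 (11.09 and 11.05), for the oligodendrocyte lineage, at 10.09 (9.81 and 9.85), and for molecular layer and Golgi interneurons, at 9.22 (9.01 and 9.01). The same held for unipolar brush cells (9.73), nucleus and brainstem neurons (8.04), astrocytes and Bergmann glia (10.03), microglia (6.95) and endothelial and mural cells (7.12). Its means were the lowest of the age for Purkinje cells, at 12.54 (12.62 and 12.56), and for granule cell progenitors, at 7.14 (7.19 and 7.29). Their part in the members' values was not tested. Without that array, the calls of the members at P21 against P15 and at P56 against P21 did not change.

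Other cells of the cerebellum use these genes, and their markers moved with several members. Of 15 granule cell markers, 12 rose and 3 fell at P56 against P0, with 40.1% of all probe sets called higher and 35.3% lower. List means were 10.60 to 10.83 at P56 and 9.31 to 9.35 at P0, and Grin2c rose too. Gabra6, the GABA receptor subunit of mature granule cells, had a mean of 11.69 at P56 and 5.08 at P0, under the lower quartile there, and Cbln3, another granule cell gene, 11.58 at P56 and 6.26 at P0. Kcnk9, on the same list, went the other way, with a mean of 7.39 at P56 and 11.40 at P0. At P56 against P7, 8 of 15 granule cell markers rose and 4 fell, with P7 list means of 10.61 to 10.73. Of all probe sets, 25.4% were called higher and 34.2% lower there. At P56 against P21, 2 of the 15 markers rose and 9 fell, or 3 and 5 with medians set to 0. In that step 22.1% of all probe sets were called higher and 34.3% lower. The part of granule cell RNA in the Grin2c signal was not tested.

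Interneuron and nuclear neuron markers were mostly lower at P56 than at P0, as were Grin2b, Grin2d and Grin3a. Of 11 markers of molecular layer and Golgi interneurons, 11 fell at P56 against P0. Of all probe sets, 35.3% were called lower and 40.1% higher there, shares that also stand beside the other counts of that comparison below. The 11 markers had list means of 8.14 to 8.31 at P56 and 10.41 to 10.44 at P0. At P56 against P21, 7 of 11 fell, where 34.3% of all probe sets were called lower and 22.1% higher. With medians set to 0, 5 fell and 2 rose in that step, and under quantile normalization 5 fell and 3 rose. At P56 against P7, 5 fell and 3 rose, a balance that turned under quantile normalization and with medians set to 0, where 4 fell and 5 rose. Of 10 measured markers of cerebellar nucleus and brainstem neurons, 6 fell and 2 rose at P56 against P0, with list means of 7.28 to 7.47 at P56 and 8.70 to 8.78 at P0. Slc17a6, the vesicular glutamate transporter of such neurons, averaged 11.73 at P0, 8.99 at P7, 8.70 at P15, 9.67 at P21 and 7.38 at P56, so that P21 stood above P15 as it did in Grin2d. In that step 4 of the 10 markers rose, where 10.5% of all probe sets were called higher and 7.16% lower. Also higher were 5 of 11 interneuron, 6 of 12 oligodendrocyte lineage and 2 of 3 unipolar brush cell markers, while Grin2b was lower. Of progenitor markers 0 rose and 6 fell, and of astrocyte markers 2 rose and 4 fell. All 11 endothelial and mural markers fell too at P56 against P0. In the same comparison, 7 of 8 granule cell progenitor, 2 of 3 unipolar brush cell, 8 of 12 astrocyte and Bergmann glia, 5 of 12 oligodendrocyte lineage and 9 of 10 microglia markers fell. Of these lists, 4 astrocyte, 6 oligodendrocyte and 1 microglia marker rose. At P56 against P7, 10 of 11 endothelial and mural, 7 of 8 granule cell progenitor and 6 of 10 nucleus and brainstem markers fell. So did 7 of 12 astrocyte, 8 of 12 oligodendrocyte, 2 of 10 microglia and 2 of 3 unipolar brush cell markers. Rises in the same order were 0, 1, 2, 2, 1, 1 and 1. Of all probe sets, 34.2% were called lower and 25.4% higher there. With medians set to 0, the falls were 5, 7, 4, 5, 5, 0 and 2, and 5 microglia markers rose. The part of these cells in the members' values was not tested.

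**Figure D4:**
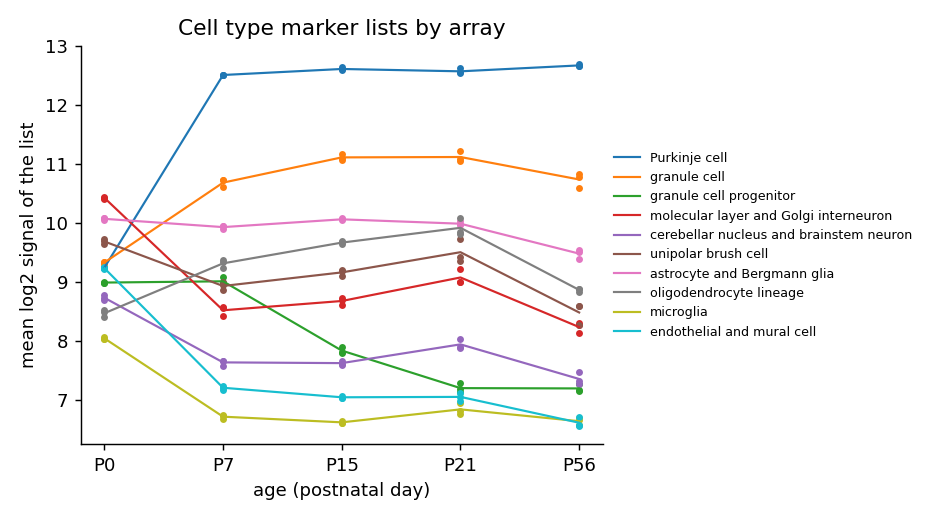
Mean log2 signal (vertical axis) of 10 lists of cell type markers at each age (horizontal axis), with a point per array and a line through the means. Purkinje cell markers are at 9.25 at P0 and above 12.5 at later ages, and interneuron and endothelial lists are highest at P0.

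The genes whose signals followed each member most closely over the 15 arrays were found by Pearson correlation among 6632 genes with a range of at least 1 between age means. The arrays fall into 5 ages and P0 stands apart from the others, so a correlation near 1 mainly says that the age means go the same way. Grin2b was followed by Mmp16, a membrane metalloproteinase (r = 0.994), Csmd2 (0.992) and Slc44a5 (0.992). Grin3a was followed by Slc6a11, the GABA transporter GAT3 (0.996), Fads2, a fatty acid desaturase (0.996), and Plxna1, a semaphorin receptor (0.994). Slc6a11 had means of 12.73 at P0, 10.05 at P7, 9.37 at P15, 9.79 at P21 and 8.13 at P56. Grin2d was followed by Ago1 of the RNA silencing machinery (0.994), Skp2, a subunit of a ubiquitin ligase (0.990), and the translation factor gene Eif3d (0.989).

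Grin2c and Grin2a had other neighbours. Grin2c was followed by Septin8 of the septin cytoskeleton (0.985), the corepressor Hr, which is induced by thyroid hormone in the brain (0.982), and Cmtm5 (0.982). Grin2a was followed less closely, by Calb2, the calcium-binding calretinin of granule and unipolar brush cells (0.895), Dlg1, a scaffold of glutamate receptors (0.882), and Unc13c, a vesicle priming factor (0.844). Calb2 had means of 11.58 at P0, 10.81 at P7, 11.69 at P15, 11.90 at P21 and 11.67 at P56, with the same low at P7 as Grin2a. Among the members themselves, Grin2b and Grin3a were most alike (r = 0.970 over 15 arrays), then Grin2d and Grin3a (0.944), while Grin2b and Grin2c ran opposite (−0.892).

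Of the other subunits of the receptor, Grin3b had a probe set and Grin1 was not analysed here. Grin3b, whose protein forms glycine-sensitive receptors in motor neurons, averaged 6.35 at P0, 6.49 at P7, 6.56 at P15, 6.59 at P21 and 6.67 at P56, close to the lower quartile of the arrays at every age. It was higher at P56 than at P0 by 0.32 (SE 0.08, limma adjusted p 0.00145), and by 0.64 with medians set to 0. As deposited, limma called no single step of Grin3b, with adjusted p between 0.138 and 0.824. P7 against P0 was called higher under quantile normalization (0.22) and with medians set to 0 (0.20), and P56 against P21 with medians set to 0 (0.31).

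Genes that act with NMDA receptors were described as 5 lists with 52 genes, of which 50 were measured. Called at P56 against P0 were 15 rises and 28 falls, where 40.1% of all probe sets were called higher and 35.3% lower. These shares also stand beside the counts of each list below in that comparison. The other 7 genes missed the threshold, and the median change was −0.37. With array medians set to 0, 21 rose and 22 fell, so the balance of directions depends on the scaling. At P56 against P7, 7 rose and 30 fell (median −0.37), where 25.4% of all probe sets were called higher and 34.2% lower. With medians set to 0, 16 rose and 23 fell there. At P56 against P21, 4 rose and 38 fell, with a median of −0.44, where 22.1% of all probe sets were called higher and 34.3% lower. With medians set to 0, 9 rose and 25 fell in that step, and under quantile normalization 5 rose and 27 fell. At P21 against P15, 11 rose and 3 fell, where 10.5% of all probe sets were called higher and 7.16% lower.

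Scaffolds that fell and scaffolds that rose were about equally many. Of 15 measured scaffold genes, 5 rose, 6 fell and 4 were not called at P56 against P0, or 8 and 5 with medians set to 0. Lrrc7, which encodes the postsynaptic density protein densin, averaged 5.70 at P56 and 11.19 at P0 and was called lower. Its P56 level lay under the lower quartile of those arrays, where signal and background could not be separated, so the size of its fall is not given. Neto1, an auxiliary protein of NMDA and kainate receptors, fell by 4.83 (SE 0.12) to 6.58 at P56, against 11.42 at P0. At P56 against P7, Neto1 fell by 3.16. The P56 mean of Neto1 lay close to the lower quartile, so the part of background in these falls is not known. Shank2, a scaffold abundant in Purkinje cells, averaged 12.00 at P56 and 9.58 at P0, higher by 2.42, with 2.36 of it reached at P7. Shank1 averaged 12.66 at P56 and 11.12 at P0, higher by 1.54.

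Kinases, phosphatases and effectors of the receptor gave 6 rises and 8 falls among 16 genes at P56 against P0, or 8 and 6 with medians set to 0. Ptpn5, the phosphatase STEP that acts on GluN2B, averaged 7.72 at P56 and 11.16 at P0, so it fell by 3.44 (SE 0.08, adjusted p 1.74e-16) and at P7 against P0 it already fell by 2.91. Rasgrf2, an exchange factor that couples the receptor to Ras, fell by 3.29 (SE 0.12), with means of 9.59 at P0, 7.57 at P7, 7.30 at P15, 8.71 at P21 and 6.30 at P56, so that P21 stood above P15. The P56 mean lay close to the lower quartile, so the part of background in this fall is not known. Of the calcium-dependent kinases that bind GluN2B, Camk2g fell by 2.39 and Camk2a rose by 1.57 (SE 0.06), with means of 12.08 at P56 and 10.52 at P0. At P56 against P21, 15 of these 16 genes fell and 1 rose, where 22.1% of all probe sets were called higher and 34.3% lower. With medians set to 0, only 9 of the 16 fell.

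Genes of receptor transport and of co-agonist supply gave 2 rises and 8 falls at P56 against P0. Of 6 measured transport genes, 1 rose, 4 fell and 1 was not called, or 2 and 2 with medians set to 0. Kif17, the motor that carries GluN2B along dendrites, rose by 2.23 (SE 0.09, adjusted p 2.09e-13) to 9.47 at P56, against 7.23 at P0, while Grin2b fell. Cask (−2.28), Lin7c (−2.11) and Lin7b (−0.39) of the adaptor complex on that motor fell, though Lin7b was not called with medians set to 0 (−0.07). Of 5 co-agonist genes, Srr, the serine racemase that makes D-serine, rose by 1.10 (SE 0.10), and 4 fell. Slc1a4, a transporter of serine and other neutral amino acids, fell by 3.90 (SE 0.07), Slc7a10 by 1.52 and the glycine transporter gene Slc6a9 by 1.49. Slc6a9 and Slc7a10 changed by 0.07 and −0.01 at P56 against P7, neither called as deposited, and both were called higher with medians set to 0 (0.34 and 0.26).

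Regulators tied to the subunit switch fell in 6 of 8 cases at P56 against P0 and rose in 2. With medians set to 0, 5 fell and 2 rose, and under quantile normalization 6 fell and 1 rose. Grm5, a metabotropic receptor needed for the change of subunits in other brain regions, averaged 6.88 at P56 and 11.98 at P0, so it fell by 5.10 (SE 0.07, adjusted p 8.10e-19), and it fell by 2.58 at P56 against P7. The neuregulin receptor gene Erbb4 (−3.61), its ligand gene Nrg1 (−1.29) and Reln (−2.22), which encodes the secreted protein reelin, fell too.

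At P56 against P0, 12 of 17 measured glutamate receptor genes of the other classes fell and 3 rose (5 with medians set to 0), and their median change was −1.02. Grm5, Grm3 (−3.99, SE 0.07), Grid1 of the delta class (−3.16) and the kainate receptor gene Grik2 (−3.03) fell most. Grm3, a metabotropic receptor of glia and some neurons, averaged 8.20 at P56 and 12.19 at P0. At P15 against P7, 9 of the 17 rose and 4 fell, where 10.4% of all probe sets were called higher and 13.6% lower. At P56 against P21, 12 fell and 5 were not called, where 22.1% of all probe sets were called higher and 34.3% lower.

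**Figure D5:**
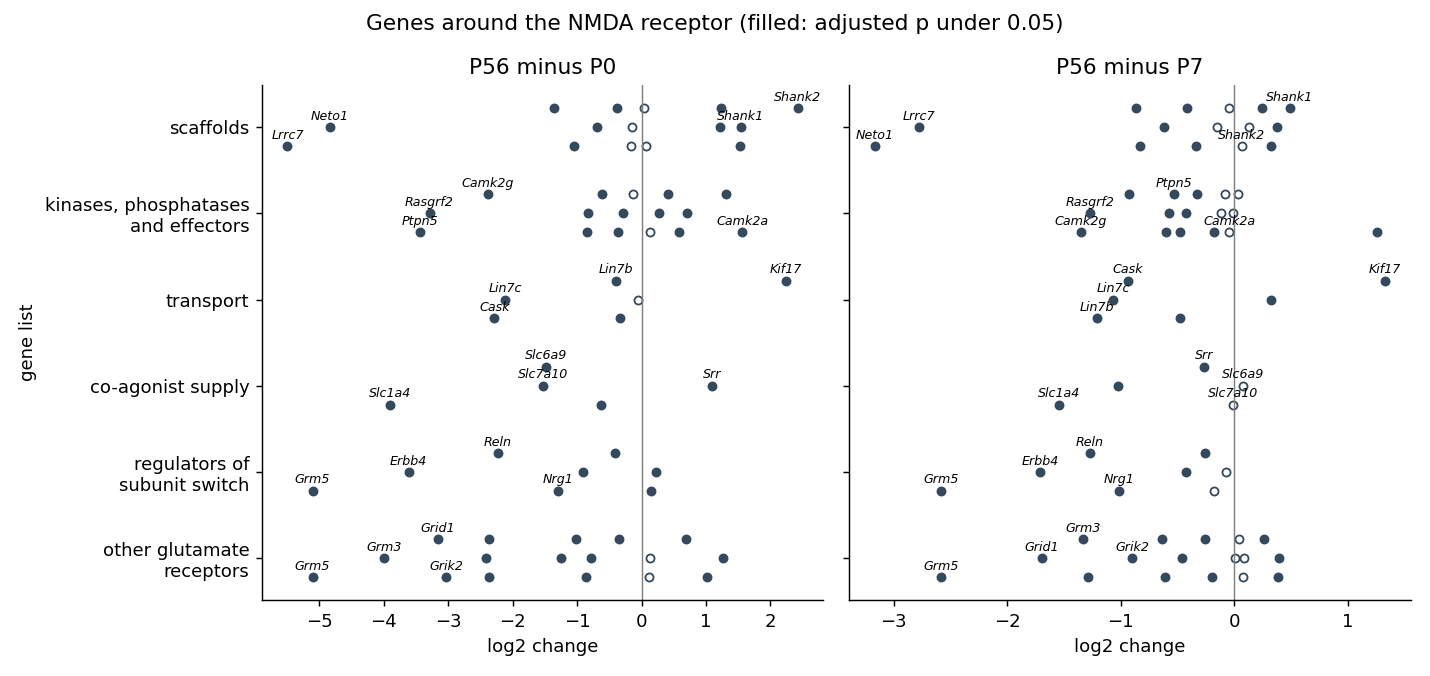
Log2 change (horizontal axis) of genes around the NMDA receptor, by list (vertical axis), for P56 minus P0 (left panel) and P56 minus P7 (right panel), with a filled point for adjusted p under 0.05 and an open point otherwise, and with the named genes labelled. Points are shifted vertically to keep them apart. Neto1 and Grm5 lie far to the left in both panels, and so does Lrrc7, whose P56 level is not shown to be above background, so that its place is not a measured size.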

How the data were processed

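RNA bound to tagged ribosomes was measured on 15 arrays, 3 at each of 5 ages. The authors deposited 1 log2 signal for each probe set and array, and the submitters' processing notes name Affymetrix Power Tools. Which algorithm, version, centring and log base they used is not stated in the sources at hand, and base 2 was assumed. No value was changed and no probe set removed, and 0 columns lay outside the 15 arrays. The files give no depth, so precision is limited by how many arrays there are. Gene symbols come from the platform annotation, which gave 1 symbol to 20996 probe sets, several to 91 and did not list 1005.

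limma 3.58.1 in R 4.3.3 fitted a mean per age over all 15 arrays with no covariate (10 residual degrees of freedom, 6.5 from the prior). Benjamini-Hochberg adjustment ran within a contrast over all 22092 probe sets, and tests were two-sided. A change is printed with its standard error (SE), a mean with its SD. The labels do not say whether replicates were separate pools of animals; if they were not, the p-values reflect technical spread among arrays only. No batch is given, so batch and age cannot be told apart.

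The members and gene lists were chosen with earlier results of these data known. Genes named are the members with all their probe sets, the 3 genes most correlated with each, up to 4 called genes per list with the largest change from P0 to P56, and markers needed beside a member. The labels do not say whether same-numbered arrays of different ages are paired, and they were treated as unpaired. Over 30 same-numbered pairs, the correlation of their deviations from the age means was −0.31 to 0.45, with a mean of 0.0017. Over 60 pairs of other numbers it was −0.42 to 0.24, with a mean of −0.00089. Such correlations cannot settle whether arrays were paired. Other settings tried were a minimum log2 change of 1, the gene mean over probe sets, dropping the dimmer 50% of probe sets, a block for the replicate number, a robust trended prior, weighted arrays, medians of 0, quantile normalization and each array left out. Plots used matplotlib 3.10.9 with Python 3.11.15.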

Additional observations from a re-analysis of the deposited data

How the results depend on the processing

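The falls of Grin2b, Grin2d and Grin3a and the rise of Grin2c at P56 against P0 kept their direction and call under every alternative run, as did their changes at P7 against P0. The values that turned sign were small: Grin2a at P56 against P0 (0.085 under quantile normalization, 0.14 with medians set to 0), Grin2c at P56 against P21 (0.037 under quantile normalization) and Grin2b at P15 against P7 (−0.027 without P15 replicate 3, within a range of −0.027 to 0.090 over the arrays left out). Averaged over arrays, the median signal at P56 was −0.32 relative to P0, and with medians set to 0 the median of all probe sets changed by 0.41. A minimum log2 change of 1 left 1 member called at P15 against P7, 0 at P21 against P15 and 3 at P56 against P7, and 25 and 14 of the genes that act with the receptor at P56 against P0 and against P7. It left 178 and 88 of all probe sets in the middle steps, 4372 at P7 against P0, 1670 at P56 against P21, 5958 at P56 against P0 and 1960 at P56 against P7, and removal of dim probe sets left 9690 and 8516 in the last 2 of these. The difference of Grin2a and Grin2b moved by 2.39 between P0 and P7 under quantile normalization. The replicate block called Grin3a at P15 against P7 (adjusted p 0.0309) and at P21 against P15 (0.0365), which gave 4 members in each, and changed no other call of a member. Leaving out each array in turn gave 5 members at P7 against P0, 3 to 4 at P15 against P7, 2 to 4 at P21 against P15, 4 to 5 at P56 against P21, against P0 and against P7, and 5 in the F-test, and it gave 42 to 45 and 36 to 37 genes that act with the receptor. The steps of the difference ranged over 2.16 to 2.28, 0.52 to 0.66, 0.69 to 0.80 and 0.43 to 0.95, with 3.99 to 4.51 at P56 against P0 and 1.77 to 2.30 at P56 against P7. Grin3a was also called at P15 against P7 and at P21 against P15 with array weights, the robust prior and dim probe sets removed, and in the earlier of these steps with gene means. The cause of these moves was not tested.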
